A study of Rattus norvegicus with 4 samples.

Results

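The genes Egf, Hbegf, Ccnd1 and Ccng1 encode a pair of ligands of the epidermal growth factor (EGF) receptor and a pair of cyclins. They were followed in the livers of rats whose common bile duct had been tied 1 h earlier. Every probe whose platform annotation gives exactly 1 gene symbol, that of 1 of these 4 genes, was taken. This gave 6 of the 1432 probes with a single symbol, or 4 of 958 genes: probe 487 for Egf, probe 1481 for Hbegf, probe 1229 for Ccnd1 and probes 289, 312 and 1294 for Ccng1. The genes were chosen partly on the ligated against sham log ratios of these same arrays, which were already known, including those of Ccnd1 and Ccng1. Their operation values are therefore given as a description, without p-values, and support nothing.

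Both groups were male Sprague-Dawley rats operated under ether. In the ligated group the duct was tied between the liver hilus and the intestine, and in the sham group it was exposed but not tied. Livers (right lateral lobe) were taken 1 h later from groups of 3 rats, and the RNA of each group was mixed, so each array compares a pool of ligated with a pool of sham liver. On 2 of the 4 two-colour cDNA arrays (1 and 3) the ligated pool carried the dye Cy5, and on the other two (2 and 4) it carried Cy3. The labels leave unsaid whether 2 arrays can hold the same RNA pools, so every error and p-value measures the spread between arrays and not between animals.

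Each deposited value is a log ratio of the 2 channels, with the base of the log not given, so sizes are on the deposited log scale. Values were read as channel 2 (ligated) over channel 1 (sham). That direction is likely from the order in which the labels name the channels, but they do not state it, and with the opposite direction the operation signs below would all be reversed. Because the values are ratios, they hold no level of a gene in liver, and neither the tissue label nor the order of the 4 genes by abundance could be checked. In whole liver, fewer cells of a type and less RNA per cell cannot be told apart.

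EGF and heparin-binding EGF are made as membrane-bound precursors, from which proteases release the soluble ligand. Binding to the EGF receptor starts the Ras and MAP kinase cascade and the induction of early response genes, and in hepatocytes this drives entry into the cell cycle after loss of liver tissue. Cyclin D1 is a late step of the same route: it binds CDK4 or CDK6, which phosphorylate the retinoblastoma protein and let cells pass from G1 into S phase. Cyclin G1 is an atypical cyclin, best known as a transcriptional target of p53 that recruits protein phosphatase 2A to Mdm2.

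RefSeq promoter sequences (assembly GRCr8) were matched by gene ID for Egf, Ccng1 and Hbegf. The stretches of 250 bases before the gene start of Ccng1 (chr10:25684877-25685126, minus strand) and of Egf (chr2:220976298-220976547, minus strand) are shown, so that the p53 site upstream of the cyclin can be read beside the stretch of a ligand. Capitals mark every match of the motifs searched.
Ccng1: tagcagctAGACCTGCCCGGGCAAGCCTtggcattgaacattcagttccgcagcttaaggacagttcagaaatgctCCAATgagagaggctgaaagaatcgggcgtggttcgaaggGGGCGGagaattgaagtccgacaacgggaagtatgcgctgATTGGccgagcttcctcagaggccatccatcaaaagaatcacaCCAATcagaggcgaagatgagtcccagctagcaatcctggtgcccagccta
Egf: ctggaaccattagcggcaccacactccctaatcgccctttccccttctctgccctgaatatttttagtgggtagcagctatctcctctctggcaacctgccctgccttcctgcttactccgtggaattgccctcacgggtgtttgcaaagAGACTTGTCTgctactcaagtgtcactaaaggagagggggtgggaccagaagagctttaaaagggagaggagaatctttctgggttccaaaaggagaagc
On both strands, the motifs searched were the GC box, spelled GGGCGG, then the CCAAT box, the AP-1 motif, spelled TGANTCA, the cAMP response element, spelled TGACGTCA, the p53 half-site by name, and a p53 site made of 2 abutting half-sites with at most 1 mismatch in all. The Ccng1 stretch held 1 such p53 site, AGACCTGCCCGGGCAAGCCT, which starts 242 bases before the gene start and whose second part is an exact half-site. It also held 1 GC box and 3 CCAAT motifs. Of 33469 promoter stretches of the same length, 0.0598% held such a paired p53 site, 6.64% an exact half-site, 30.5% a GC box and 34% a CCAAT motif. The Egf stretch held 1 exact p53 half-site, AGACTTGTCT, and none of the others, and that of Hbegf held 1 CCAAT motif and none of the others. AP-1 and cAMP response element motifs, found in 6.34% and 1.59% of the stretches, were in none of the 3. A match is a run of letters and was not tested for binding.

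The arrays held 1936 probes with 0 missing values. Their deposited medians followed the dye, at -0.88 and -0.73 on arrays 1 and 3 and 0.75 and 0.87 on arrays 2 and 4, so the median was subtracted array by array. Limma was then run on all probes, with operation and dye as the coefficients of each probe. Of all probes, 111 (5.73%) had an adjusted p under 0.05 for the operation, 18 higher (0.93%) and 93 lower (4.8%) after ligation. For scale, the 2 probes of Nr0b2, an orphan nuclear receptor acting as a repressor of bile acid production, rose by 1.18 ± 0.08 and 1.08 ± 0.08 (mean ± SE of n = 4; limma adjusted p = 8.11e-20 and 3.82e-18). The second processing used below, called the dye curve per block, subtracts from each array a smooth curve of its values on the probes' dye effect. The curve is fitted within each of 16 blocks of 121 consecutive probe numbers, so that a value is relative to its own block. That dye effect comes from the same 4 arrays, so the curve takes most of a probe's own dye difference out of its values. Agreement between the dye orientations after the curve is therefore largely built in. The dye curve per block called 137 probes (7.08%), 70 higher (3.62%) and 67 lower (3.46%).

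Egf, the founding ligand of the family, had 1 probe. Its deposited log ratios were -0.91, 0.85, -1.24 and 0.85 on arrays 1 to 4, below 0 where the ligated pool carried Cy5 and above 0 where it carried Cy3. After centring they were -0.04, 0.10, -0.51 and -0.02. Array 3 stood below the others, which lay within 0.10 of 0. The estimate for ligated over sham was -0.12 ± 0.09 (SE, n = 4). Without array 3 it was 0.0014, so its size rests on that array. With the dye curve per block subtracted, the 4 values were -0.03, -0.16, -0.26 and -0.12, all below 0 and again lowest on array 3, with an estimate of -0.14 ± 0.04. Because this curve takes out the probe's dye difference, the like sign in both dye orientations is largely built in.

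Hbegf, the heparin-binding ligand and an early response gene in many cell types, had the estimate closest to 0 of the 6 probes on centred arrays. Its deposited values were -1.32, 1.34, -1.23 and 1.21, the widest spread of the 6. After centring they were -0.45, 0.59, -0.51 and 0.33, which still part by dye: both arrays with the ligated pool in Cy5 were below 0 and both with it in Cy3 above. The dye cancels in the mean of an array of each orientation, and the 4 such pairs gave means from -0.09 to 0.07. The estimate was -0.0065 ± 0.084 (SE, n = 4), and 0.016 ± 0.037 after the dye curve per block, where 2 of 4 arrays lay above 0. Its operation estimate was thus smaller than its SE with either processing.

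Ccnd1, the G1 cyclin that partners CDK4 and CDK6, had the highest estimate of the 6 probes. Its deposited values were -0.54, 1.17, -0.49 and 0.82, and its centred values were 0.34, 0.42, 0.23 and -0.05. Of 4 arrays, 3 lay above 0 and array 4 just below. The estimate was 0.23 ± 0.09 (SE, n = 4), or 1.18-fold if the base is 2, and ranked 20 from the top among 1936 probes. The 4 pairs of arrays of opposite dye gave means from 0.09 to 0.38, all above 0. It was 0.12 without array 2 and 0.35 without array 4. Read as Cy5 over Cy3, where 1599 of 1936 probes were called for the operation, it was 0.05, no longer the highest of the 6. The dye curve per block left it at 0.20, 0.41, 0.29 and 0.09, above 0 on 4 of 4 arrays, with an estimate of 0.25 ± 0.05. As for Egf, agreement between the dye orientations after this curve is largely built in.

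**Figure D1:**
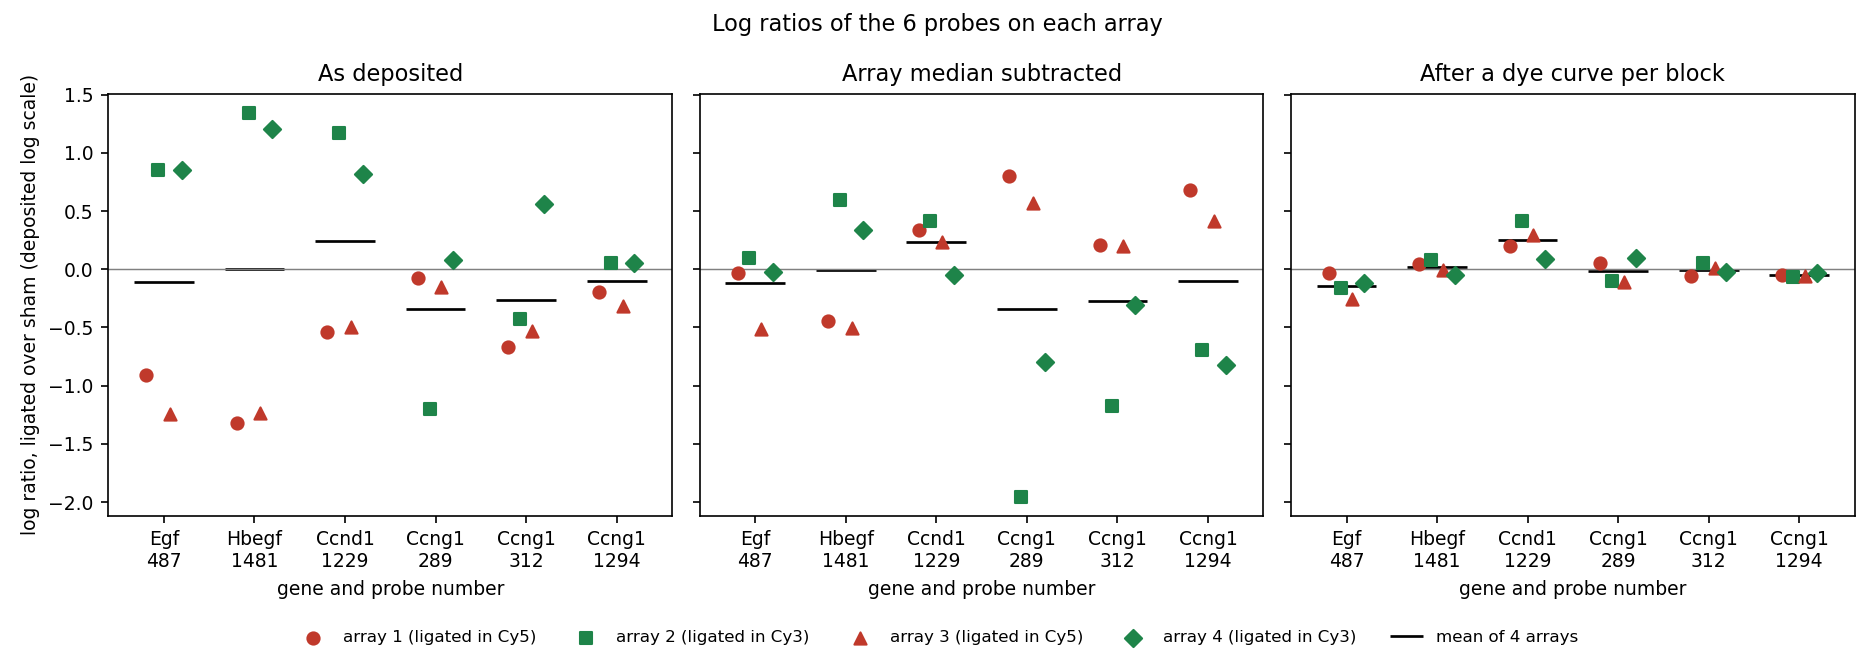
Log ratios (ligated over sham, deposited log scale) of the 6 probes on each of 4 arrays, as deposited, after subtraction of the array median, and after the dye curve per block. Points are arrays, coloured by the dye of the ligated pool, and black lines are means of 4 arrays. The deposited values of Egf, Hbegf and Ccnd1 part by dye, and Ccng1 probe 289 reaches -1.95 on array 2 after centring. After the dye curve per block the Ccnd1 probe has 4 of 4 arrays above 0 and the Egf probe has 4 of 4 below. That curve takes out a probe's dye difference, so agreement between the dyes is largely built in.

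Ccng1 was measured by 3 probes, which gave 3 sizes of the same sign. Probe 289 had deposited values of -0.07, -1.20, -0.16 and 0.08, near 0 on 3 arrays and far below on array 2. Its centred values were 0.80, -1.95, 0.57 and -0.79. The estimate was -0.34 ± 0.10 (SE, n = 4), or 0.789-fold if the base is 2, but -0.053 without array 2 and -0.63 without array 4.

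Probe 312 had deposited values of -0.67, -0.42, -0.53 and 0.56. After centring these were 0.21, -1.18, 0.20 and -0.31, again lowest on array 2. Its estimate was -0.27 ± 0.09, and -0.053 without array 2. The third probe, 1294, had the narrowest deposited spread of the 6, at -0.19, 0.06, -0.31 and 0.05. Centred, it had 0.68, -0.70, 0.42 and -0.82, with array 2 between the others, and an estimate of -0.10 ± 0.08.

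On array 2, probe 289 lay 1.25 below probe 1294 and 0.77 below probe 312. On arrays 1, 3 and 4 probe 289 lay 0.12, 0.16 and 0.03 above probe 1294. The disagreement of probes 289 and 1294 is thus on 1 array. Probe 312 differed from probe 1294 by -0.47, -0.48, -0.22 and 0.51 on arrays 1 to 4, so those 2 probes differed on every array and with no common sign.

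Both Ccng1 probes with large estimates, 289 and 312, lie in block 3, and the third lies in block 11. The block 3 probes deviated from the array-wide dye curve by a median of -0.83 on array 2, against -0.23, -0.26 and 0.27 on arrays 1, 3 and 4. In that block 49.6% of 121 probes were called for the operation, 60 lower and 0 higher, against 3.31% in block 11. Ccng1 probe 289 was 1 of those 60. Its values were 0.05, -0.10, -0.11 and 0.09 after the dye curve per block, and its estimate -0.015 ± 0.043. Probe 312 then had -0.06, 0.05, 0.01 and -0.02 and -0.0052 ± 0.036, and probe 1294 had -0.05, -0.07, -0.05 and -0.03 and -0.052 ± 0.034. With this processing the 3 Ccng1 estimates lie within 0.05 of each other, and all 3 are nearer to 0 than on centred arrays.

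**Figure D2:**
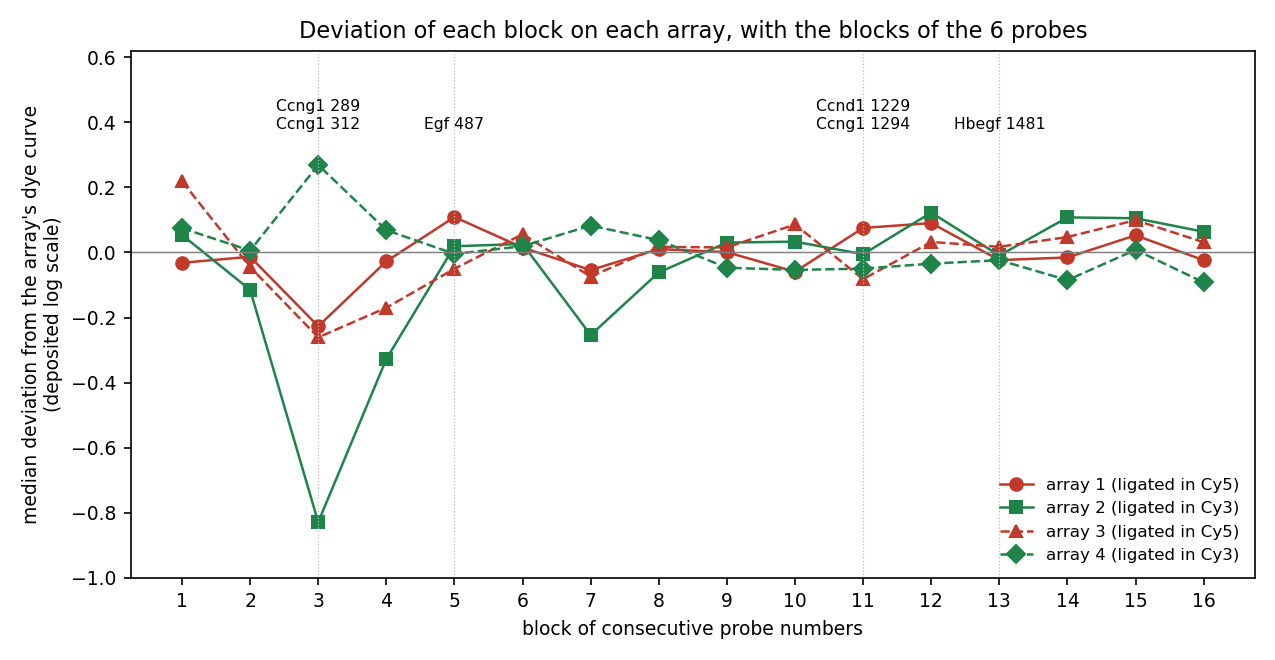
Median deviation of each block of 121 consecutive probe numbers from the array's own dye curve (deposited log scale), for blocks 1 to 16, with 1 line per array and the blocks of the 6 probes marked. Block 3, which holds Ccng1 probes 289 and 312, lies at -0.83 on array 2 and at 0.27 on array 4, while blocks 5, 11 and 13, which hold the other probes, lie between -0.08 and 0.11 on all 4 arrays.

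The spread around the fitted operation and dye terms differed among the 6 probes in the same way. Its SD was 0.59 for Ccng1 probe 289 and 0.43 for probe 312, larger than for 99.1% and 94.7% of probes. It was 0.24 for both Egf and Ccnd1 (larger than for 89.7% and 89.0% of probes), 0.15 for Ccng1 probe 1294 and 0.13 for Hbegf. The median of this SD in block 3 was 0.50. The standard errors of the 6 probes nonetheless differ little, from 0.084 to 0.096, because limma draws each probe's variance toward one shared by all probes (76.2 prior against 2 residual degrees of freedom). With the robust form of this prior the SE of Ccng1 probe 289 was 0.247.

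Of the 6 probes, 1 was among the calls on centred arrays (Ccng1 probe 289, lower), where 5.73% of all probes were called. The dye curve per block left 1 call (Ccnd1, higher), where 7.08% of all probes were called. The calls are of different genes. As the genes were chosen with this contrast known, nothing is read from either count.

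**Figure D3:**
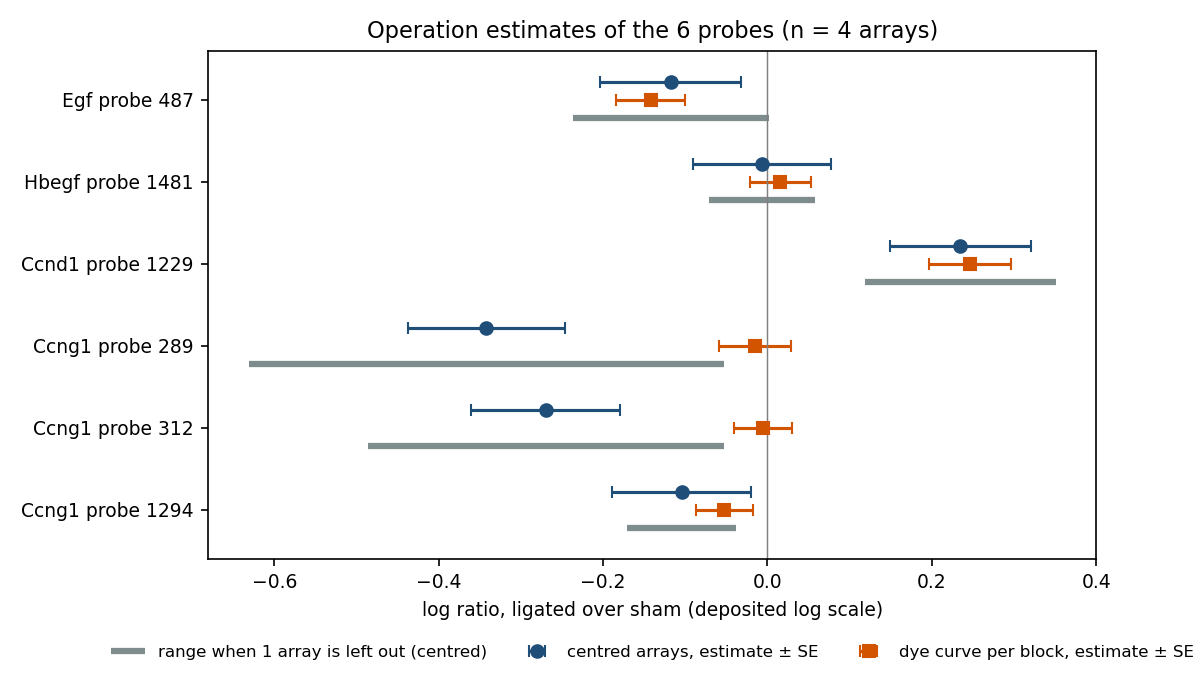
Operation estimates (ligated over sham, deposited log scale) of the 6 probes on centred arrays and after the dye curve per block, with SE over 4 arrays, and the range of the centred estimate when 1 array is left out. Ccnd1 lies at 0.23 and 0.25 with the 2 processings, while Ccng1 probe 289 moves from -0.34 to -0.015 and probe 312 from -0.27 to -0.0052.

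The dye effect played no part in the choice of genes and could be tested. It is taken as the shift of a probe toward Cy5 relative to the array median, as the dye coefficient of the same limma fit. Over all probes 82.6% were called for the dye, 42.1% higher and 40.4% lower. Of the 6 probes 4 were called. All 3 Ccng1 probes were shifted toward Cy5, by 1.03 ± 0.10 at probe 289, 0.47 ± 0.09 at probe 312 and 0.65 ± 0.08 at probe 1294 (SE, n = 4; limma adjusted p = 4.52e-16, 2.54e-06 and 9.34e-11). Hbegf was shifted the other way, by -0.47 ± 0.08 (limma adjusted p = 6.96e-07). Egf had -0.16 ± 0.09 and Ccnd1 0.05 ± 0.09, and neither passed (limma adjusted p = 0.0869 and 0.574). Egf passed without array 4 (-0.18, limma adjusted p = 0.0404) but not without array 1, 2 or 3. For the 5 probes other than Ccnd1 the size of the dye estimate exceeded that of the operation estimate. The shift is relative to the array median: as deposited, without centring, the dye coefficients of all 6 probes but Ccng1 probe 289 were below 0. Egf (-0.96) and Ccnd1 (-0.76) then passed (limma adjusted p = 0.000166 and 0.000452), as did Hbegf and Ccng1 probe 1294. Ccng1 probes 289 and 312 (0.22 and -0.33) then did not pass (limma adjusted p = 0.384 and 0.133).

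**Figure D4:**
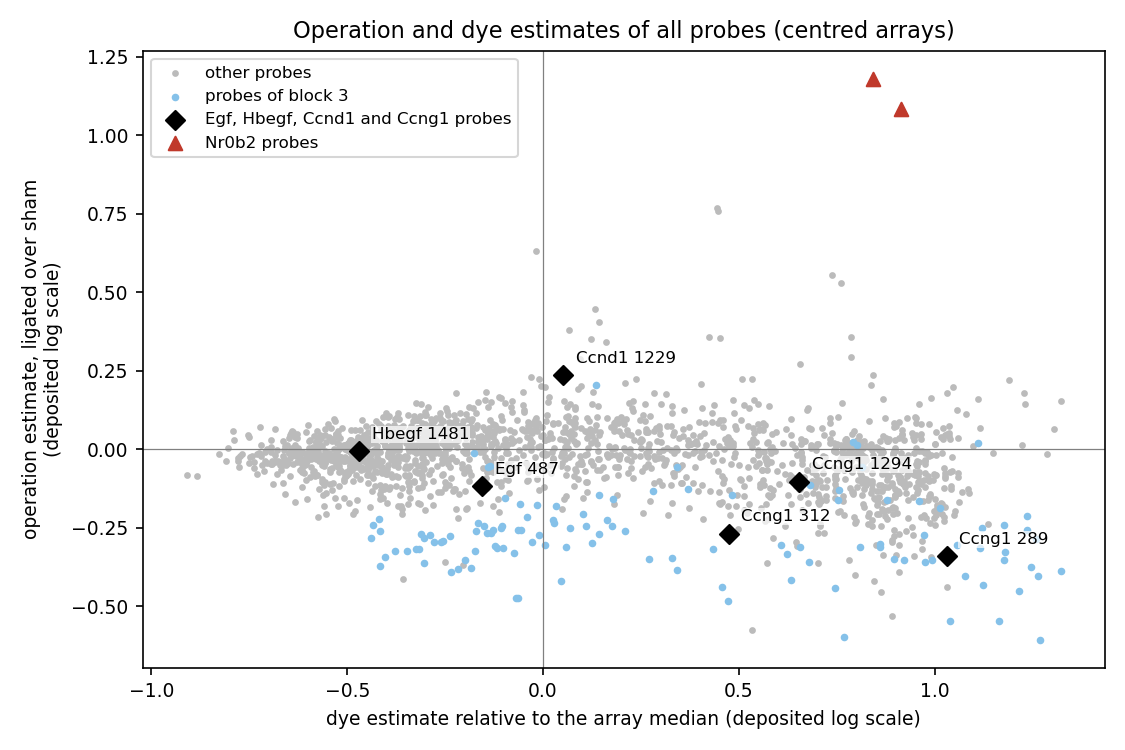
Operation estimate (ligated over sham) against dye estimate for each of 1936 probes on centred arrays, both on the deposited log scale, with the 6 probes, the 2 Nr0b2 probes and the probes of block 3 marked. Most block 3 probes lie below 0 on the operation axis, Ccng1 probes 289 and 312 among them, and Ccnd1 lies at 0.23 with a dye estimate of 0.05.

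The probes of other genes most like each of the 6 were taken as the 2 at the smallest Euclidean distance of centred values over 4 arrays, among 1429 or 1431 probes with a single symbol. For Egf they were Stk25 (probe 486, distance 0.116) and Dpp4 (probe 220, 0.16). Stk25 carries the probe number next to that of Egf. For Ccng1 probe 289 they were Fads2 (probe 288, 0.19), again the neighbouring number, and Sgk1 (probe 342, 0.205), both in block 3. For Ccng1 probe 312 they were S100a10 (probe 788, 0.177) and Nutf2 (probe 360, 0.325), and for probe 1294 Igfbp2 (probe 555, 0.0575) and Cyp4f4 (probe 642, 0.0974).

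The smallest of these distances was that of Hbegf to Slc1a2 (probe 1870, 0.0469), with Map3k6 next for Hbegf (probe 1845, 0.0599), and all 3 probes part by dye. The nearest neighbour of Ccnd1 was farther than that of any other of the 6 probes: Pdap1 (probe 1723, 0.253), followed by Dynll1 (probe 1224, 0.256). Of these 12 neighbours, 0 stayed among the nearest 2 after the dye curve per block, and Ccnd1 was then nearest to Abcc4 (probe 875, 0.106), a bile salt exporter, and Aldh1a1 (probe 10, 0.155).

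The other genes of the route from receptor to cell cycle were taken from 8 lists of 197 genes, of which 56 genes were measured by 100 probes outside the 4 genes. On centred arrays 2 of these probes rose and 3 fell, against 0.93% and 4.8% of all probes. After the dye curve per block 7 rose and 0 fell, against 3.62% and 3.46%. All 3 that fell on centred arrays lie in block 3. The lists were chosen with earlier results of these data known, so their calls and p-values are descriptive.

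The receptor itself, Egfr, was the 1 measured gene of the 4 in its family and had 2 probes. Probe 327, in block 3, had centred values of 0.54, -1.66, 0.56 and -0.68, and fell by 0.31 ± 0.09 (SE, n = 4; limma adjusted p = 0.0265). Its lowest value was on array 2, as for the block 3 probes of Ccng1, and the estimate without that array was -0.064 (limma adjusted p = 0.951). The call also ended after the dye curve per block (-0.0045 ± 0.036, limma adjusted p = 0.963). Probe 1270 had 0.51, -0.49, 0.28 and -0.77, with -0.12 ± 0.08 (limma adjusted p = 0.671) and -0.077 ± 0.036 after that curve (limma adjusted p = 0.266). The median of the 2 probes was -0.21, against -0.02 for all probes.

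Of 13 other EGF family ligands and sheddases, 2 were measured, by 3 probes, and none passed with either processing. They were the sheddase Adam9 and the tetraspanin Cd9, which associates with the Hbegf precursor. The 2 Cd9 probes had -0.09 and 0.09, and the list's median was 0.02. Of 37 genes of signalling downstream of the receptor, 10 were measured by 17 probes, with a median of -0.0041. Estimates ran from -0.16 (Ywhaz probe 154, a 14-3-3 protein) to 0.15 (Akt2 probe 127, a kinase of the PI3 kinase branch). Akt2 probes 49, 810 and 1502 had 0.01, -0.07 and -0.01. No probe of this list passed on centred arrays. After the dye curve per block 1 rose, Stat3 probe 723, a transcription factor activated by cytokine and growth factor receptors (0.14 ± 0.04, limma adjusted p = 0.0329), while its other probe, 1418, did not pass.

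The growth factor response genes held 4 of the 5 calls on centred arrays. Of 30 genes 11 were measured by 20 probes, with a median of 0.02. Of these probes 2 rose and 2 fell, against 0.93% and 4.8% of all probes. Fos, a subunit of AP-1, had centred values of 0.32, 0.40, 0.57 and 0.23, above 0 on every array, and rose by 0.38 ± 0.08 (limma adjusted p = 0.00139). Ccn2, the connective tissue growth factor, had 0.39, 0.33, 0.55 and 0.13 and rose by 0.35 ± 0.08 (limma adjusted p = 0.00361). Both calls held after the dye curve per block (0.30 ± 0.04 and 0.27 ± 0.04, limma adjusted p = 0.000949 and 0.000908). Both ended without array 1 (limma adjusted p = 0.124 and 0.230) and without array 3 (0.999 for both), with estimates between 0.31 and 0.44. They also ended as deposited, without centring (limma adjusted p = 0.271 and 0.242), with 1 dye curve fitted to each array (0.167 and 0.135) and after quantile normalization (0.0964 for both), with estimates from 0.34 to 0.42. Without a dye term neither passed (limma adjusted p = 1 for both). Read as Cy5 over Cy3, their estimates were 0.07 and 0.12 (limma adjusted p = 0.471 and 0.172). In that reading 1599 of 1936 probes were called for the operation.

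The 2 that fell were block 3 probes, Dusp1 probe 291 (a phosphatase of MAP kinases) and Sgk1 probe 342 (a kinase). Their estimates were -0.43 ± 0.09 and -0.31 ± 0.09 (limma adjusted p = 0.00127 and 0.0275), but -0.16 and -0.074 without array 2 (limma adjusted p = 0.545 and 0.934). The block curve brought them to -0.09 and 0.02 (limma adjusted p = 0.249 and 0.796). With the robust prior neither Dusp1 nor Sgk1 passed (limma adjusted p = 0.556 and 0.117), while Fos and Ccn2 did. Their other probes lie in other blocks and did not pass with either processing: 1 of Dusp1 (0.13 on centred arrays) and 3 of Sgk1 (-0.10, -0.0043 and -0.06). Myc, a target of growth factor signalling that acts upstream of cyclins, had -0.15 ± 0.09 at probe 305 in block 3 and 0.03 ± 0.08 at probe 945, neither past the threshold (limma adjusted p = 0.557 and 0.991). With the block curve 5 probes of the list rose and 0 fell, against 3.62% and 3.46% of all probes. Those that rose were Fos, Ccn2, Egr1 probe 263 in block 3 (0.45 ± 0.04, limma adjusted p = 2.42e-05), Dusp6 probe 1872 (0.19 ± 0.05, limma adjusted p = 0.0323) and Fosl2 probe 651 (0.16 ± 0.04, limma adjusted p = 0.0228). On centred arrays Egr1 had 0.20 ± 0.09 (limma adjusted p = 0.269), in a block whose median estimate was -0.29. The other probes of Dusp6 (0.01 and -0.05) and Fosl2 (0.01) did not pass after the curve. The list's median was then 0.04, against 0.0021 for all probes.

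Among other cyclins, cyclin-dependent kinases and their inhibitors, no probe passed with either processing. Of 35 genes 10 were measured by 21 probes, with a median of -0.0076 and a range from -0.24 to 0.08. Ccnd2, another D-type cyclin, had -0.18 ± 0.09 at probe 362 in block 3 and 0.06 ± 0.08 at probe 1587 (limma adjusted p = 0.369 and 0.953), and 0.08 and 0.09 after the dye curve per block. Ccnd3 had -0.01 ± 0.09 (limma adjusted p = 0.991). The 5 probes of Cdk6, a kinase partner of cyclin D1, lay between -0.12 and 0.03. The lowest estimate of the list was that of Cdk1, the mitotic kinase, at probe 414 in block 4 (-0.24 ± 0.08, limma adjusted p = 0.0913), and its 4 other probes lay between -0.0035 and 0.08. Block 4 also lay low on array 2, by a median of -0.33 from the array-wide dye curve. It held 11 probes called lower for the operation and 0 higher. After the dye curve per block Cdk1 probe 414 had -0.06 (limma adjusted p = 0.395).

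Genes of DNA replication and mitosis were likewise uncalled on centred arrays. Of 31 genes 8 were measured by 18 probes, with a median of -0.0010. The largest estimates in size were -0.16 for Cdc25a probe 337 in block 3, a phosphatase that activates cyclin-dependent kinases, and -0.12 for Mcm4 probe 427 in block 4, a subunit of the replicative helicase. After the dye curve per block Cdc25a probe 337 rose (0.15 ± 0.04, limma adjusted p = 0.0437), with the opposite sign, and its other probes did not pass. Mcm4 probe 427 then had -0.02 (limma adjusted p = 0.851). In the p53 list, 6 of 23 genes were measured by 10 probes and none passed with either processing. Its median was 0.0061. Both its ends were probes of Apaf1, the apoptosome scaffold, at -0.14 (probe 749) and 0.07 (probe 1450), while Apaf1 probe 1171 had 0.0015. The probe next in size was that of Bcl2l1, an inhibitor of apoptosis, at -0.09. Apaf1 probe 749 and the Bcl2l1 probe lie in block 7, whose median estimate was -0.10. After the dye curve per block they had -0.0028 and 0.018. Gak, a kinase that binds cyclin G1, lay at -0.01 and 0.03 at its 2 probes, and Ppp2ca, a catalytic subunit of the phosphatase that cyclin G1 recruits, at 0.01. Of 24 liver growth and priming factors 8 were measured by 9 probes, none passed, and the median was -0.03. The lowest were Vegfa (-0.21 ± 0.08, block 4) and Igf1 (-0.18 ± 0.08), with limma adjusted p = 0.174 and 0.266.

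**Figure D5:**
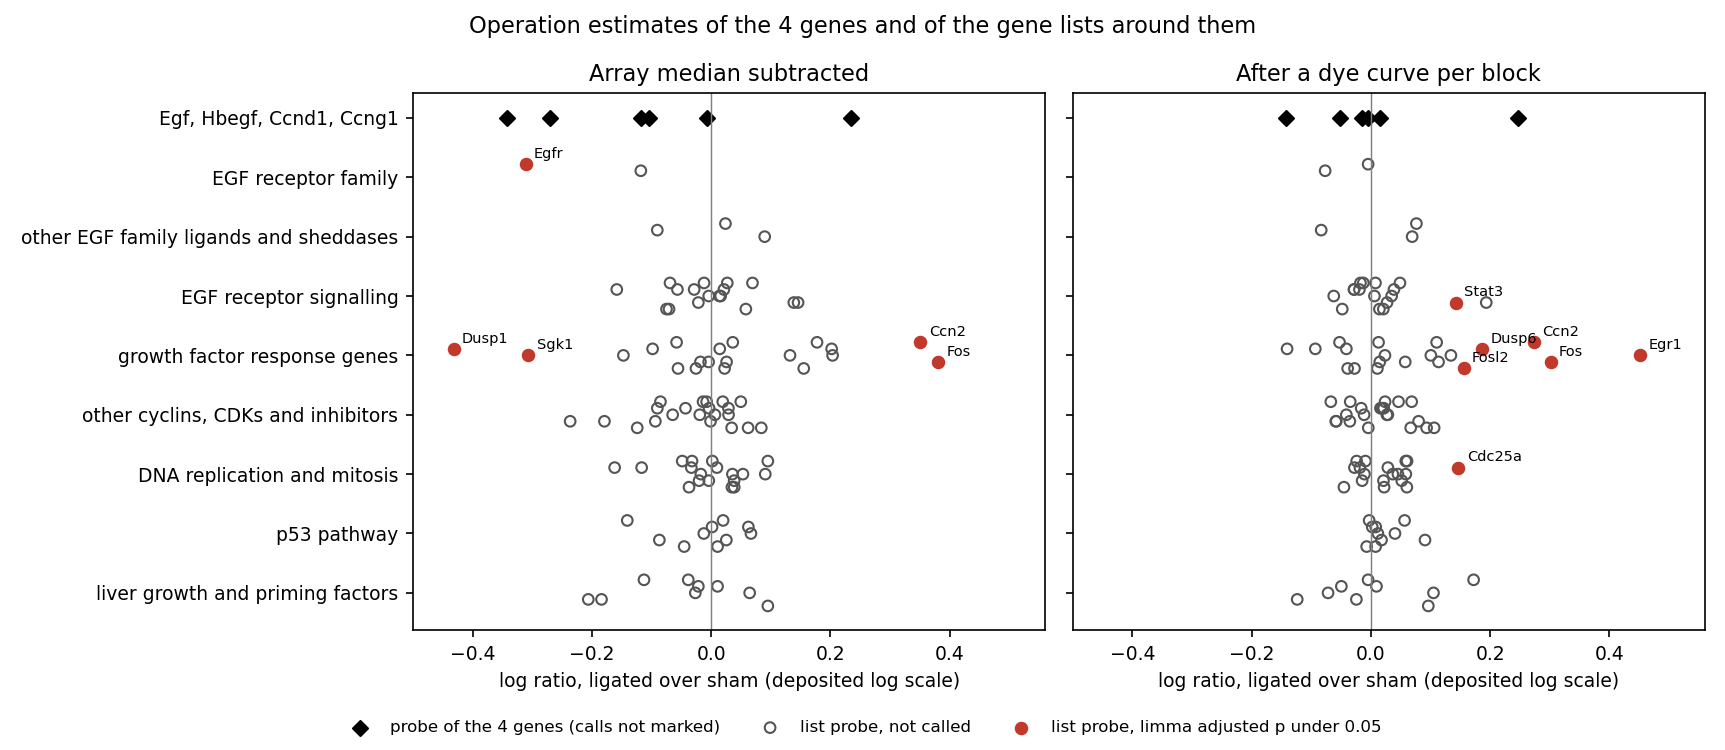
Operation estimates (ligated over sham, deposited log scale) of the 6 probes and of the 100 probes of the 8 gene lists, on centred arrays and after the dye curve per block. Red points had a limma adjusted p under 0.05 (5 on centred arrays, 7 after the curve), and diamonds are the 6 probes, whose calls are not marked. Egfr, Dusp1 and Sgk1 are called lower on centred arrays and not after the curve, while Fos and Ccn2 are called higher in both.

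Markers of the cell types that liver holds were few on these arrays. The hepatocyte list had 6 of 10 genes measured by 13 probes, none called on centred arrays, with a median of -0.05. The cholangiocyte, endothelial and neutrophil lists had 1, 3 and 1 measured genes and no calls with either processing (medians 0.10, -0.12 and 0.08). Of the stellate cell and fibroblast list 2 genes were measured by 3 probes and 1 probe rose, Col1a1 probe 1306 (0.34 ± 0.08, limma adjusted p = 0.00526), a collagen chain. It had 0.36 after the dye curve per block (limma adjusted p = 0.00435) and was not followed through the other settings. Col1a1 probe 1183 had 0.10 with either processing and did not pass (limma adjusted p = 0.812 on centred arrays and 0.121 after the curve). Of the blood list, 1 of the 2 probes of the platelet chemokine Pf4 fell, probe 292 in block 3 (-0.30 ± 0.09, limma adjusted p = 0.0337), a call that ended after the dye curve per block (-0.047, limma adjusted p = 0.519). After that curve 1 hepatocyte probe rose and 1 fell. No macrophage or lymphoid marker was measured by a probe with a single symbol. The part of cell composition in the values of the 4 genes was not tested.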

How the data were processed

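Two-colour cDNA arrays compared pooled liver RNA of ligated and sham rats. Per the labels, sham is channel 1 and ligated channel 2, with dyes exchanged on arrays 2 and 4. The deposited values are 1 log ratio per probe and array, while for the scanner, background correction, normalization and log base nothing is stated in the labels or file header. Symbols came from the platform annotation, updated by gene ID through RefSeq GRCr8 (1429 of 1432 single-symbol probes matched; 19 probes had several symbols and 485 none).

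Arrays were centred on their medians and fitted over all 1936 probes (operation and dye terms) by limma 3.58.1 (R 4.3.3; lmFit, then eBayes), and p-values were adjusted by Benjamini-Hochberg, with a threshold of 0.05. The fit was tested on simulated data: 83.5% of 200 probes shifted by 0.3 and 100% shifted by 0.6 were recovered, among 1936 probes. In these runs 6 and 13 unshifted probes were called. The simulated noise was independent, with 1 SD for all probes and no block deviations. It therefore checks the code of the fit and gives no error rate for the calls in these data. Dye curves were lowess fits (span 0.4 per array, 0.7 per block). Precision is limited by how few arrays there are. The direction reading, array centring and block curves follow what an earlier look at these data had shown, and the members and lists were chosen with earlier results of these data known. Named are all probes of the 4 genes, every called list probe, the 2 largest estimates of each list, 16 receptor and cell cycle genes fixed by name where measured, the 2 nearest probes of each member, and Nr0b2. Other probes called after the dye curve per block, and Adam9, Gak, Ppp2ca, Cdk1 and the marker probes, were named after their values were seen. Other settings were no centring, equal scaling, quantile normalization, a fit without the dye term, a robust prior, reading values as Cy5 over Cy3, averaged probes and leaving out each array.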

Additional observations from a re-analysis of the deposited data

Results flagged for a closer look

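Among the 35 probes of the 4 genes and of named list genes, each array's value was compared with the other three for a single array standing apart, as deposited and centred (70 sets of 4 values), where chance gives about 1 in 20. This met 2 sets, fewer than that rate would give over 70. The rate also assumes 4 like values, while many deposited sets part by dye. Dusp1 probe 291 had a deposited value of -1.35 on array 2, against -0.04, -0.18 and -0.14 on arrays 1, 3 and 4. Sgk1 probe 342 had a deposited value of -1.075 on array 2, against values from -0.08 to -0.03 on the others. Both lie in block 3, as do Ccng1 probes 289 and 312. Ccng1 probe 289 had a like deposited profile, with -1.20 on array 2, but fell short of the limit.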

How the results depend on the processing

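The operation call count over all probes (111, of which 16.2% higher) depended on the processing: 3 without centring (100% higher), 62 with equal scaling (24.2% higher), 12 after quantile normalization (75% higher), 67 with a robust prior (26.9% higher), 7 after a dye curve per array (100% higher), 40 of 958 genes with probes averaged, and 0 without a dye term in limma (5 at unadjusted p under 0.05; 277 in the fit used). Of the 137 calls after the dye curve per block, 51.1% were higher. Leaving out 1 array gave 12 to 241 calls. In the same order of settings the pathway lists (5 calls) gave 0, 3, 0, 2, 0, 2 and 0, and 0 to 15 without 1 array. Limma fits without 1 array share 1 SE over all probes, so their p-values hold nothing of the spread of a single probe. The dye calls (1599) were 737 of 958 genes with probes averaged. In the other settings where they were counted they stayed within 1.5 times, except in the next reading. They were not counted after either dye curve, which takes out dye differences, nor without a dye term.

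As deposited, arrays of opposite dye orientation correlated at -0.93 to -0.77, and those of the same orientation at 0.86 to 0.94. Read as Cy5 over Cy3, operation and dye trade places by construction, with 1599 operation calls among 1936 probes, 111 dye calls and 74 list calls. The operation estimates were then -0.16 for Egf, -0.47 for Hbegf, 0.05 for Ccnd1, no longer the highest of the 6, and 1.03, 0.47 and 0.65 for Ccng1 probes 289, 312 and 1294, and the dye estimates of these Ccng1 probes -0.34, -0.27 and -0.10. Signs also turned for Egfr (0.86 and 0.51), Cd9 (0.82 and -0.18), Cdc25a probe 337 (0.88), Cdk1 probe 414 (0.99), Cdk6 probes 1145 and 1166 (-0.28 and -0.15), Dusp1 (1.12), Sgk1 (1.06), Igf1 (0.89), Mcm4 (0.078), Myc probe 305 (0.14), Vegfa (1.02) and Ywhaz (1.00).

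Without 1 array the operation estimates ran from -0.24 to 0.0014 for Egf, from -0.071 to 0.058 for Hbegf, from 0.12 to 0.35 for Ccnd1, and from -0.63 to -0.053, -0.49 to -0.053 and -0.17 to -0.038 for Ccng1 probes 289, 312 and 1294. Without centring the dye estimates of Ccnd1 (-0.76) and of Ccng1 probes 312 (-0.33) and 1294 (-0.15) turned sign, and without 1 array that of Ccnd1 ran from -0.065 to 0.17. After the dye curve per block signs turned for Hbegf (0.016), Bcl2l1 (0.018), Ccnd2 probe 362 (0.080), Cdc25a probe 337 (0.15), Cdk6 probe 1408 (-0.011), Myc probe 305 (0.10) and Sgk1 (0.024), and with probes averaged for Ccnd2 probe 1587 (-0.059), Cd9 probe 1871 (-0.00030), Cdk6 probes 1145, 1166 and 1408 (-0.028) and Myc probe 945 (-0.061). Without 1 array, estimates also crossed 0 for Bcl2l1 (-0.18 to 0.010), Ccnd2 probe 362 (-0.42 to 0.065), Ccnd3 (-0.088 to 0.060), Cdc25a probe 337 (-0.42 to 0.10), Cdk6 probes 1145 (-0.050 to 0.089), 1166 (-0.047 to 0.10) and 1408 (-0.090 to 0.15), and Myc probes 305 (-0.40 to 0.10) and 945 (-0.00062 to 0.052). The causes were not tested. No paired analysis was possible because all arrays form 1 group, with ligated and sham on the same array. No signal over background was at hand to limit the values.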
